A study of Homo sapiens with 6 samples.

Results

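Histone and DNA modifying enzymes were examined in HaCaT cells, an immortalized line of human skin keratinocytes, after 24 h with 1 µg/ml histamine and without it. The genes were chosen by symbol from the probe annotation: the KDM, KMT, HDAC, SIRT, SETD, KAT, PRMT, DNMT and TET families, the polycomb genes EZH1, EZH2, SUZ12 and EED, the coactivators EP300 and CREBBP, and EHMT1, EHMT2, NSD1, NSD2 and DOT1L. KDM3A was left out. These names covered 83 of the 20046 annotated genes and 137 probes on the Illumina HT-12 bead array. A probe was detected on an array when its detection p-value, from its rank among the negative control beads, was below 0.05. A gene counted as measured when 3 or more of the 6 arrays detected a probe of it. In this way 62 of the 83 genes were measured, each through its brightest kept probe.

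The histamine group held 3 arrays and the control group, which received no histamine, another 3. Both groups were grown in the same medium with 1.5 mM calcium and 10% fetal serum, per the labels. The labels do not say whether the replicates were separate cultures, so the p-values reflect only how far these arrays differ, a spread that may be technical. The sample names of the histamine arrays come from one numbered series and those of the control arrays from another, so any batch tied to those series and the treatment cannot be told apart. HaCaT is a single line, and what it shows is limited to it.

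Histone modifying enzymes add or remove small groups on histone tails. Acetyltransferases such as p300 and CBP mark active enhancers and promoters, and deacetylases and sirtuins take the acetyl group off. Methyltransferases of the KMT2 and SETD1 families place methylation on lysine 4 of histone H3 at active genes, while the polycomb repressive complex PRC2 methylates lysine 27 at silenced ones. DNA methyltransferases mark cytosines, and TET dioxygenases oxidize the mark. In the epidermis, EZH2 is known for keeping differentiation genes off in basal progenitors.

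The arrays were alike in quality. The median probe signal lay between 121 and 124 on the histamine arrays and between 122 and 141 on the control arrays, and 36.7% to 40.9% of 47322 probes were detected per array. Across the 10406 genes tested, which are not independent replicates, the correlation was 0.984 to 0.989 within a group and 0.96 to 0.975 between groups. All 10 keratinocyte marker genes on the array, among them KRT5 and KRT14, were detected on every array. Markers of skeletal muscle stood apart: between 5 and 11 of 11 such genes were detected on the histamine arrays and between 0 and 2 on the control arrays. The summed background-corrected signal of the muscle markers was 37500 on histamine replicate 1 and 1350 and 1170 on replicates 2 and 3, against 190 to 208 on the control arrays. Results are therefore also given without histamine replicate 1. The summed immune cell markers were 1300 to 1350 on histamine arrays and 912 to 1000 on control arrays, with PTPRC, CD3E and KIT detected on no array. Of the 2 measured immune markers, CD68 was higher by 1.26 on the log2 scale and CD14 did not pass the threshold given below. The part of either list in the results below was not tested.

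After histamine 2 of the 62 measured enzyme genes rose and 9 fell, at an adjusted p-value below 0.05 by limma. The 9 include SIRT6, which passed the detection filter only through the control arrays, where it is high, so its call adds no support. HDAC4, among the 2 that rose, was detected on 1 control array. It needed the histamine arrays, where it is high, to pass the filter, so its p-value is given as a description. The other 51 did not pass. The share that changed was 17.7%, near the 21.3% of all 10406 genes tested, so these enzymes as a set changed about as often as other genes. In the upward direction the share was 3.23% against 9.29% of all genes, and in the downward direction 14.5% against 12%. The median log2 difference, histamine minus control, was -0.14 for the enzymes and -0.08 for all genes. The 3 histamine arrays and the 3 control arrays did not overlap for 23 of the 62 genes, or 37.1%, against 37.4% of all genes. Without histamine replicate 1 the counts were 2 risen and 7 fallen, and the same counts came without replicate 2 or 3 of that group and without control replicate 1 or 2. That is 14.5% of the enzymes, beside 14.7% to 15.5% of all genes without a histamine array, 14% without control replicate 1 and 11.7% without control replicate 2. Without control replicate 3 the counts were 3 risen and 10 fallen, or 21% of the enzymes beside 24.5% of all genes.

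The genes that fell were EP300, KAT2B, KAT6A, CREBBP, HDAC3, SIRT6, KMT2A, EZH2 and KDM1A, and those that rose were EED and HDAC4. For all 11 of them every histamine array lay on one side of every control array. The genes were chosen by a test on these same arrays, so this separation adds no support. Of these 11 genes, 8 were detected on all 6 arrays. Over the 11 genes control replicate 3 lay a median of 0.17 of the way from the control mean to the histamine mean, and control replicates 1 and 2 lay at -0.1 and -0.05.

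**Figure D1:**
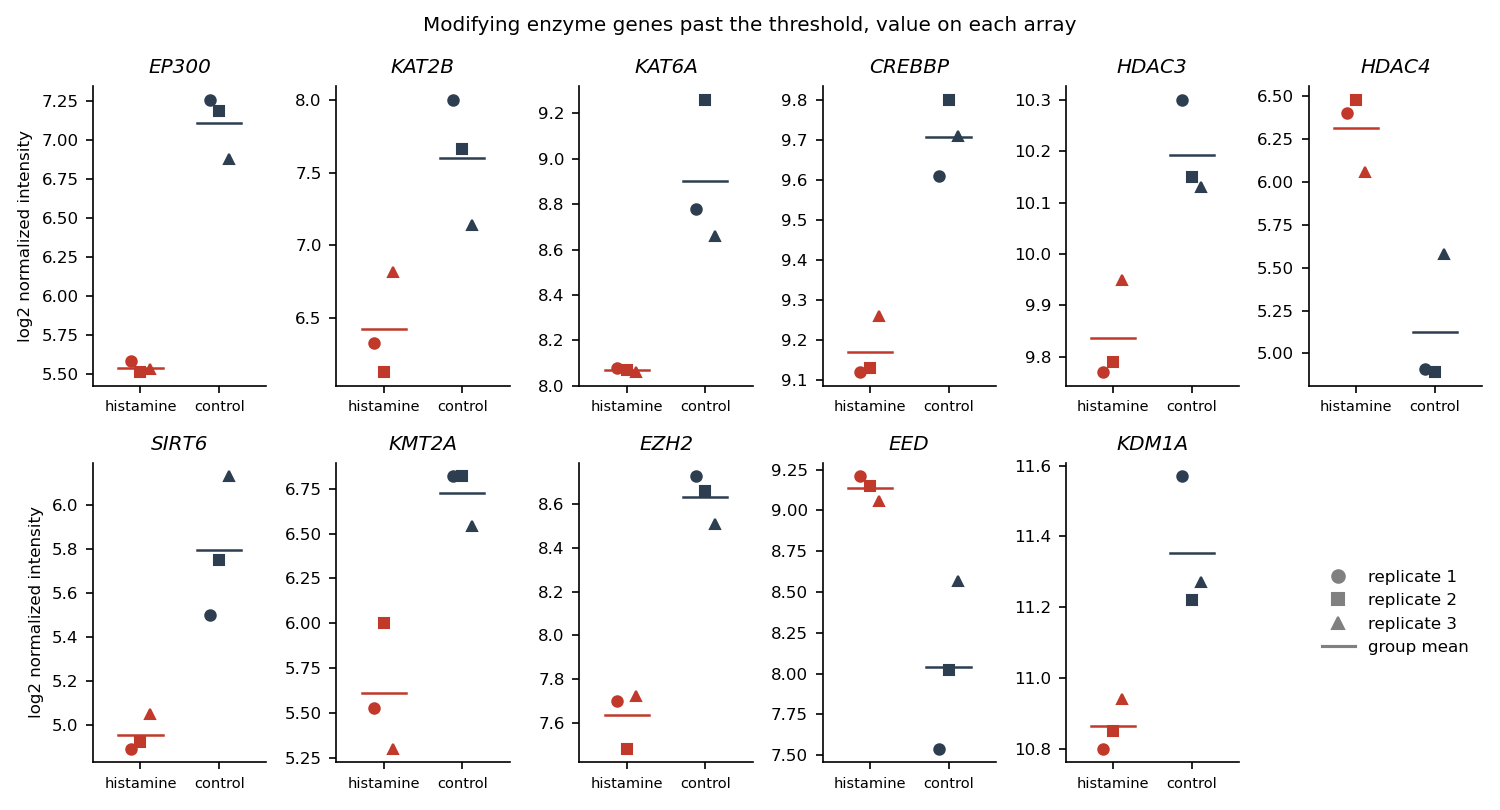
Log2 normalized intensity (vertical axis, a separate scale for each gene) of the 11 enzyme genes past the threshold, on the 3 histamine arrays (left, red) and the 3 control arrays (right, dark), with group means as lines. In no panel do the groups overlap: EP300, for example, ran from 5.51 to 5.58 on the histamine arrays and from 6.88 to 7.26 on the control arrays. The genes were chosen by a test on these same arrays.

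Acetyltransferases included the 2 largest decreases among the measured enzymes, EP300 and KAT2B. Of their 9 measured genes 4 fell, none rose and 5 did not pass, where 12% of all genes fell. The same 4-gene count of decreases was found without any 1 array. The class is 1 of several roles examined, and whether it fell more often than other genes was not tested. EP300, which encodes the coactivator p300, had log2 intensities of 5.58, 5.51 and 5.53 on the histamine arrays, against 7.26, 7.19 and 6.88 on the control arrays. It was 2.98-fold lower with histamine (log2 difference -1.57 ± 0.23, SE; adjusted p = 0.000118). CREBBP encodes CBP, the close paralog of p300. Its values were 9.12, 9.13 and 9.26 with histamine, against 9.61, 9.80 and 9.71 in control cells, and it fell by 0.54 ± 0.12 (adjusted p = 0.00518). Both paralogs thus fell. The histamine values of EP300 lie just above the lowest value of a detected probe on those arrays (5.45 to 5.46). That limits what its fold and its narrow histamine spread show. A second CREBBP probe was detected on no array.

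KAT2B, or PCAF, a coactivator acetyltransferase that acetylates lysine 9 of histone H3, had values of 6.33, 6.13 and 6.82 on the histamine arrays and 8.00, 7.66 and 7.14 on the control arrays. It was 2.26-fold lower (-1.18 ± 0.24; adjusted p = 0.00259), with control replicate 3 nearest to the histamine arrays. A second KAT2B probe was detected on no array. KAT6A, or MOZ, a MYST-family acetyltransferase, had 8.08, 8.07 and 8.06 with histamine, against 8.78, 9.26 and 8.66 without it (-0.83 ± 0.16; adjusted p = 0.00189). The histamine values of KAT6A were nearly the same on the 3 arrays, and control replicate 2 was the highest. KAT2A, or GCN5, the paralog of KAT2B, gave 0.11 with a 95% interval of -0.17 to 0.38, beside -1.69 to -0.66 for KAT2B. The differences of KAT5 (TIP60), KAT7 (HBO1), KAT8 (MOF) and KAT14 lay between -0.09 and 0.34 and did not pass. The other KAT5 probe gave 0.28, and KAT6B was detected on no array.

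The promoter windows of the paralogs EP300 and CREBBP are shown because both genes fell. Each covers the 250 bases before the RefSeq gene start that lies farthest upstream, on GRCh38.p14, at chr22:41092342-41092591 on the plus strand and chr16:3880714-3880963 on the minus strand, written 5′ to 3′ along the gene. Capitals mark GC boxes (GGGCGG or its reverse complement CCGCCC) and CCAAT boxes (CCAAT or ATTGG), counted with overlaps.
EP300: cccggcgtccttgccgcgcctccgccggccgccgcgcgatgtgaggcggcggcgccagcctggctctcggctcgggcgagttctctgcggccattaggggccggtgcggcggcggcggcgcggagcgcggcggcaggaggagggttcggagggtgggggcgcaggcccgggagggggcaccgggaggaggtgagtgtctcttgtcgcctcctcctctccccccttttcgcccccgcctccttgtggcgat
CREBBP: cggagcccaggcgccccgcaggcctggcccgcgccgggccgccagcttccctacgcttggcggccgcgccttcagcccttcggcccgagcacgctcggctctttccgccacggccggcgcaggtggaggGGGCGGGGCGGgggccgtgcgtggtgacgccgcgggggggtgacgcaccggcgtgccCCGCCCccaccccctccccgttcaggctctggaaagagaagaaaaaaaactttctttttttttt
Both windows are rich in G and C, at 76.8% for EP300 and 72.4% for CREBBP. That of CREBBP held 3 GC boxes, of which a pair overlap, and that of EP300 held 0; neither held a CCAAT box. A GC box was present in 61 of 90 windows of the measured enzyme genes (67.8%), which matched 58 of the 62 genes, and in 42.6% of 35116 windows of all genes. For the CCAAT box the shares were 34.4% and 32.0%.

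Deacetylases moved both ways. Of 9 measured zinc-dependent deacetylases 1 rose, 1 fell and 7 did not pass. HDAC4, a class IIa deacetylase that shuttles between nucleus and cytoplasm and binds MEF2 factors, had log2 intensities of 6.40, 6.48 and 6.06 on the histamine arrays, against 4.91, 4.89 and 5.58 on the control arrays. It was 2.28-fold higher (1.19 ± 0.28; adjusted p = 0.00607). Its probe was detected on 3 of 3 histamine arrays and on 1 of 3 control arrays. It thus needed the histamine arrays, where it is high, to pass the detection filter, so its p-value is given as a description. Control replicates 1 and 2 lay below the lowest value of a detected probe on those arrays (5.38 and 5.32), which limits the fold of HDAC4. Without histamine replicate 1 the difference was 1.14. Muscle markers were also higher on histamine replicates 2 and 3 than on the control arrays, and their part in the HDAC4 value was not tested.

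HDAC9, another class IIa deacetylase, was read by a pair of kept probes. The brightest gave 6.55, 6.54 and 6.50 with histamine, against 6.20, 6.20 and 5.36 in control cells (0.61 ± 0.26; adjusted p = 0.105). The other had 6.43, 6.28 and 6.37 on the histamine arrays and 5.38, 5.43 and 5.45 on the control arrays. Tested among all 13743 kept probes, of which 21.9% changed, this second probe was higher by 0.95 ± 0.24 (adjusted p = 0.00965). It was detected on 3 of 3 histamine arrays and 1 of 3 control arrays. This second probe thus needed the histamine arrays, where it is high, to pass the detection filter, so its p-value is given as a description. Its control values lie near the lowest value of a detected probe on those arrays (5.32 to 5.50), which limits its fold and control spread. The brightest probe was detected on 3 of 3 histamine arrays and 2 of 3 control arrays. Both probes read higher on every histamine array than on any control array, and the gene passed only through the second probe or the mean of both. HDAC7, also of class IIa, gave -0.58, with an interval of -1.20 to 0.04.

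HDAC3, the catalytic subunit of the NCoR and SMRT corepressor complexes, had 9.77, 9.79 and 9.95 with histamine, against 10.30, 10.15 and 10.13 without it, and fell by 0.36 ± 0.12 (adjusted p = 0.0357). That call did not survive leaving out any single array other than control replicate 3, keeping dim probes, or a variance model with no intensity trend. HDAC1 and HDAC2, the class I pair of the Sin3, NuRD and CoREST complexes, gave -0.18 (interval -0.38 to 0.01) and 0.02 (interval -0.24 to 0.28). The remaining measured deacetylases, HDAC6, HDAC8 and HDAC11, lay between -0.28 and 0.53. HDAC5 was detected on 1 array of each group, through different probes, and HDAC10 on no array.

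SIRT6 was the sirtuin that passed. Sirtuins are deacylases that use NAD, and SIRT6 acts on histone H3 at telomeres and glycolytic genes. Its log2 intensity was 4.89, 4.92 and 5.05 on the histamine arrays, where it was never detected, against 5.50, 5.75 and 6.13 on the control arrays. With only a bound on the histamine side, raised on each array to the lowest value of a detected probe, SIRT6 was at least 1.27-fold lower (adjusted p = 0.0424). It passed the detection filter through the control arrays alone, where it is high, so its p-value is given as a description and supports nothing. Leaving out any single array ended its call. SIRT1, SIRT2, SIRT5 and SIRT7 lay between -0.36 and 0.26 and did not pass; SIRT2 and SIRT5 gave -0.51 and -0.38 on their other probes. SIRT3 and SIRT4, which act in mitochondria, were detected on no array.

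PRC2 subunits moved in opposite directions. EZH2, its main catalytic subunit, had log2 intensities of 7.70, 7.48 and 7.72 on the histamine arrays, against 8.73, 8.66 and 8.51 on the control arrays. It was 2.0-fold lower (-1.0 ± 0.16; adjusted p = 0.000267). EED, the WD40 subunit that reads trimethylated lysine 27 and activates the enzyme, had 9.21, 9.15 and 9.06 with histamine, against 7.54, 8.02 and 8.57 without it. It was 2.15-fold higher (1.10 ± 0.20; adjusted p = 0.000874). The control arrays of EED spread over 1 log2 unit, with replicate 3 nearest to the histamine arrays, whereas those of EZH2 lay close together. Neither gene lost its call without any 1 array.

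The probes of EZH2 disagreed in size. The one used was the brightest because of the control arrays, where its mean was 8.63, against 8.11 and 8.05 on the other kept probes. On the histamine arrays it was the dimmest, at 7.63 against 7.68 and 7.83. The choice of probe was thus not independent of the difference tested. The other kept probes gave -0.43 ± 0.17 (adjusted p = 0.0821) and -0.22 ± 0.16 (adjusted p = 0.362), and on the mean of the 3 probes the gene fell by 0.55 (adjusted p = 0.0143). On each of them every histamine array lay below every control array. SUZ12, the scaffold of the complex, had 11.31, 11.24 and 11.31 with histamine, against 11.34, 11.50 and 11.65 in control cells (-0.21, interval -0.44 to 0.01; adjusted p = 0.158). EZH1, the second catalytic subunit, was detected on 1 histamine and 2 control arrays and gave -0.09 with a wide interval of -0.76 to 0.57.

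Among 7 partners of PRC2, 2 rose, none fell and 5 did not pass, where 9.29% of all genes rose. Whether this list rose more often than other genes was not tested. MTF2, a polycomb-like subunit that recruits the complex to CpG-rich DNA, had 8.02, 8.01 and 7.88 on the histamine arrays and 6.56, 6.66 and 7.41 on the control arrays (1.09 ± 0.22; adjusted p = 0.00184). RBBP7, a histone-binding subunit, rose by 0.45 ± 0.13 (adjusted p = 0.0191), but not under median scaling, not with the trend removed, and not when control replicate 1 or histamine replicate 2 or 3 was left out. RBBP4, AEBP2, JARID2, PHF1 and PHF19 lay between -0.26 and -0.07. The median of the partners was -0.19, so the pair that rose differed from most of the list. As in EED, control replicate 3 of MTF2 lay between its fellow control arrays and the histamine arrays.

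**Figure D2:**
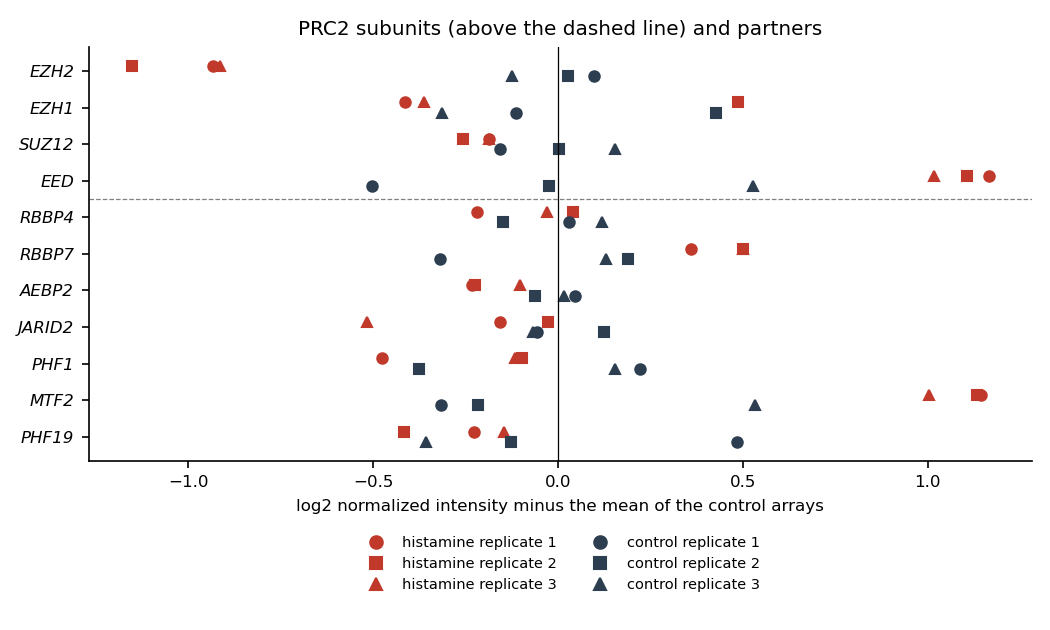
Log2 normalized intensity of PRC2 subunits (above the dashed line) and partners (below it) on each array, minus the mean of the control arrays of that gene; histamine arrays are red and control arrays dark. EZH2 lies left of its controls and EED and MTF2 lie right of theirs, with control replicate 3 (dark triangle) shifted towards the histamine arrays for EED and MTF2.

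The promoter windows of EZH2 and EED are shown because these subunits of a single complex moved oppositely. They cover the 250 bases before the gene start farthest upstream in RefSeq, GRCh38.p14, at chr7:148884292-148884541 on the minus strand and chr11:86244503-86244752 on the plus strand. Capitals again mark GC and CCAAT boxes on either strand.
EZH2: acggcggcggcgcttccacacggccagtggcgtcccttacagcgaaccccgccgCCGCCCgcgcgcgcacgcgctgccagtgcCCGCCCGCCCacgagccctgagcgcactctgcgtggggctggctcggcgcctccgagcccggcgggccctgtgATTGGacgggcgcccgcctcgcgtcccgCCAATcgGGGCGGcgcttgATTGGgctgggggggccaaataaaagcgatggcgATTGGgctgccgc
EED: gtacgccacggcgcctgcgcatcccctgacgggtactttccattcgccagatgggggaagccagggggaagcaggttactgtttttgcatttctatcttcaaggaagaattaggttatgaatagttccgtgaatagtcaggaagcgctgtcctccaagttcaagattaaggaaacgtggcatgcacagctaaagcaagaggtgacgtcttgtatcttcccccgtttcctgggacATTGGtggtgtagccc
The EZH2 window is 75.6% G and C and held 4 GC boxes and 4 CCAAT boxes, while that of EED is 51.2% G and C and held 0 GC boxes and 1 CCAAT box. CpG dinucleotides numbered 38 and 11. Also searched was the motif of E2F factors written as TTTNGCGC or GCGCNAAA, was in 0 of the 90 enzyme windows and in 1.51% of all windows. The motif of the factor NRF1 was in 10 of the 90 enzyme windows (11.1%), against 5.07% of all.

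The KMT2 and SETD1 genes, most of which encode methyltransferases for lysine 4 of histone H3, had differences below 0 in 6 of 6 measured genes, as did 58.4% of all genes, and 1 of the 6 passed. KMT2A, or MLL1, which maintains HOX gene expression, had 5.53, 6.00 and 5.30 on the histamine arrays, against 6.82, 6.82 and 6.54 on the control arrays. It was 2.17-fold lower (-1.12 ± 0.25; adjusted p = 0.00468) and was detected on 2 of 3 histamine arrays. KMT2C, an enhancer methyltransferase, had 5.04, 5.22 and 5.47 with histamine, against 5.95, 6.33 and 5.68 without it (-0.74 ± 0.28; adjusted p = 0.0641). It was detected on 1 of 3 histamine arrays, and it passed under median scaling, with the trend removed, or when control replicate 3 was left out. KMT2B gave -0.50, SETD1B -0.32, SETD1A -0.27 and KMT2E -0.25, none of which passed, and the median of the 6 genes was -0.41. Without histamine replicate 3 one of the 6 differences lay above 0. KMT2D and SETD7 were detected on no array.

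KMT2E, a SET domain protein that binds methylated lysine 4 and is not thought to be an active methyltransferase, differed between probes. Its second kept probe had 4.77, 5.14 and 5.07 on the histamine arrays, none of them above background, against 6.10, 6.13 and 5.90 on the control arrays. On that probe it was at least 1.50-fold lower (adjusted p = 0.00943 among all kept probes). The probe passed the detection filter through the control arrays alone, where it is high, so its p-value is given as a description and supports nothing. The brightest probe gave 7.37, 7.59 and 6.54 with histamine, against 7.47, 7.28 and 7.50 in control cells, and the groups overlapped.

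The KMT2 and SETD1 enzymes work in COMPASS complexes, whose shared subunits they need for activity. Of 11 measured COMPASS partners 5 fell, none rose and 6 did not pass, where 12% of all genes fell, with a median of -0.37 beside -0.08 for all genes. The list is 1 of several examined, and whether it fell more often than other genes was not tested. WDR82, which ties SETD1 complexes to RNA polymerase II, had 8.68, 8.67 and 8.80 on the histamine arrays and 9.37, 9.42 and 9.40 on the control arrays. It fell by 0.68 ± 0.13 (adjusted p = 0.00129). CXXC1, which binds unmethylated CpG, fell by 0.55 ± 0.13. The core subunits ASH2L (-0.50), RBBP5 (-0.52) and DPY30 (-0.37), named after their values were seen, also fell, and WDR5 gave -0.15. Without the intensity trend 2 of the 11 fell, and without control replicate 2 it was 3. RBBP5 depended on single arrays, since leaving out replicate 1 or 2 of either group ended its call. So did DPY30, whose call ended when control replicate 2 or histamine replicate 3 was left out, and on the mean of its probes (-0.04).

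The other SET domain and lysine methyltransferases gave no call among 11 measured genes; by the same limma test, 1 had an unadjusted p-value under 0.05. That gene was EHMT2, or G9a, which methylates lysine 9 of histone H3. It had 5.82, 5.52 and 5.82 with histamine, against 6.25, 6.20 and 6.35 without it (-0.55 ± 0.24; adjusted p = 0.116), and it passed without the intensity trend. SETD4 gave the largest positive difference, 0.51, with an interval of -0.07 to 1.10. SETD2, which trimethylates histone H3 in transcribed gene bodies, gave -0.29, and the enzymes of lysine 20 of histone H4 gave -0.19 (KMT5A), -0.30 (KMT5B) and 0.17 (KMT5C). NSD1, NSD2, SETD3, SETD6 and SETD9 lay between -0.03 and 0.17. SETD3, which methylates actin, had the narrowest interval of this class, -0.21 to 0.21. The other kept probes of KMT5B and SETD3 gave -0.08 and 0.03. EHMT1 was detected on at most 1 array of each group on any of its 3 probes.

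Lysine demethylases had 1 decrease, no increase and 8 genes that did not pass. KDM1A, or LSD1, the flavin-dependent demethylase of lysine 4 in the CoREST complex, had 10.80, 10.85 and 10.94 on the histamine arrays, against 11.57, 11.22 and 11.27 on the control arrays. It fell by 0.49 ± 0.11 (adjusted p = 0.00517), with control replicate 1 the highest array, and its call was lost without the intensity trend (adjusted p = 0.052). KDM4B, a Jumonji demethylase of lysine 9, had 5.10, 4.78 and 5.32 with histamine and 5.67, 5.90 and 5.71 in control cells. It was detected on the control arrays alone, so it passed the filter through them, and it did not pass the test (adjusted p = 0.0851). KDM4B passed with the trend removed (adjusted p = 0.0308). KDM2A gave -0.39 (adjusted p = 0.115) and passed under median scaling (adjusted p = 0.0293) and without control replicate 3 (-0.58; adjusted p = 0.0148). KDM2B, KDM3B, KDM4A and KDM5B lay between -0.33 and -0.21. KDM6A, which removes the lysine 27 mark set by EZH2, gave 0.02 with an interval of -0.33 to 0.37, and KDM4D gave 0.14. Unmeasured were KDM1B and KDM5C, detected on 1 array each, and KDM4C, KDM5D, KDM6B, KDM7A and KDM8, detected on none.

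Arginine methyltransferases had no call among 7 measured genes; by limma 1 had an unadjusted p-value under 0.05. PRMT3, which acts on a ribosomal protein, had 11.63, 11.52 and 11.68 on the histamine arrays, against 11.13, 10.97 and 11.62 on the control arrays (0.37 ± 0.13; adjusted p = 0.0586). Control replicate 3 overlapped the histamine arrays, and without it PRMT3 passed. PRMT9 gave 0.28, PRMT6 0.20, PRMT1 0.17, PRMT5 0.05, PRMT7 0.04 and PRMT2 -0.22. Differences were above 0 for 6 of these 7 genes, a direction that turned under median scaling, where 2 of 7 were above 0. The other probes gave -0.24 for PRMT6, 0.05 for PRMT5, and 0.43 and -0.04 for PRMT2. PRMT8, known from brain, was detected on no array.

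DNA methylation enzymes had 2 measured genes and no call; by limma neither had an unadjusted p-value under 0.05 on its brightest probe. DNMT1, the maintenance methyltransferase, had 12.15, 12.02 and 12.18 with histamine, against 12.34, 12.14 and 12.16 without it, with a difference of -0.09 and an interval of -0.30 to 0.11. DNMT3B, a de novo methyltransferase, gave -0.06 on its brightest probe. Its second kept probe had 5.01, 4.92 and 4.83 on the histamine arrays, where it was never detected, against 6.08, 5.80 and 5.58 on the control arrays. That is at least 1.29-fold lower (adjusted p = 0.0274 by limma among all kept probes). This probe too passed the filter through the control arrays alone, and the same limit holds for its p-value. DNMT3A was detected on 1 control array, TET1 on 1 histamine array, and DNMT3L and TET2 on no array.

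**Figure D3:**
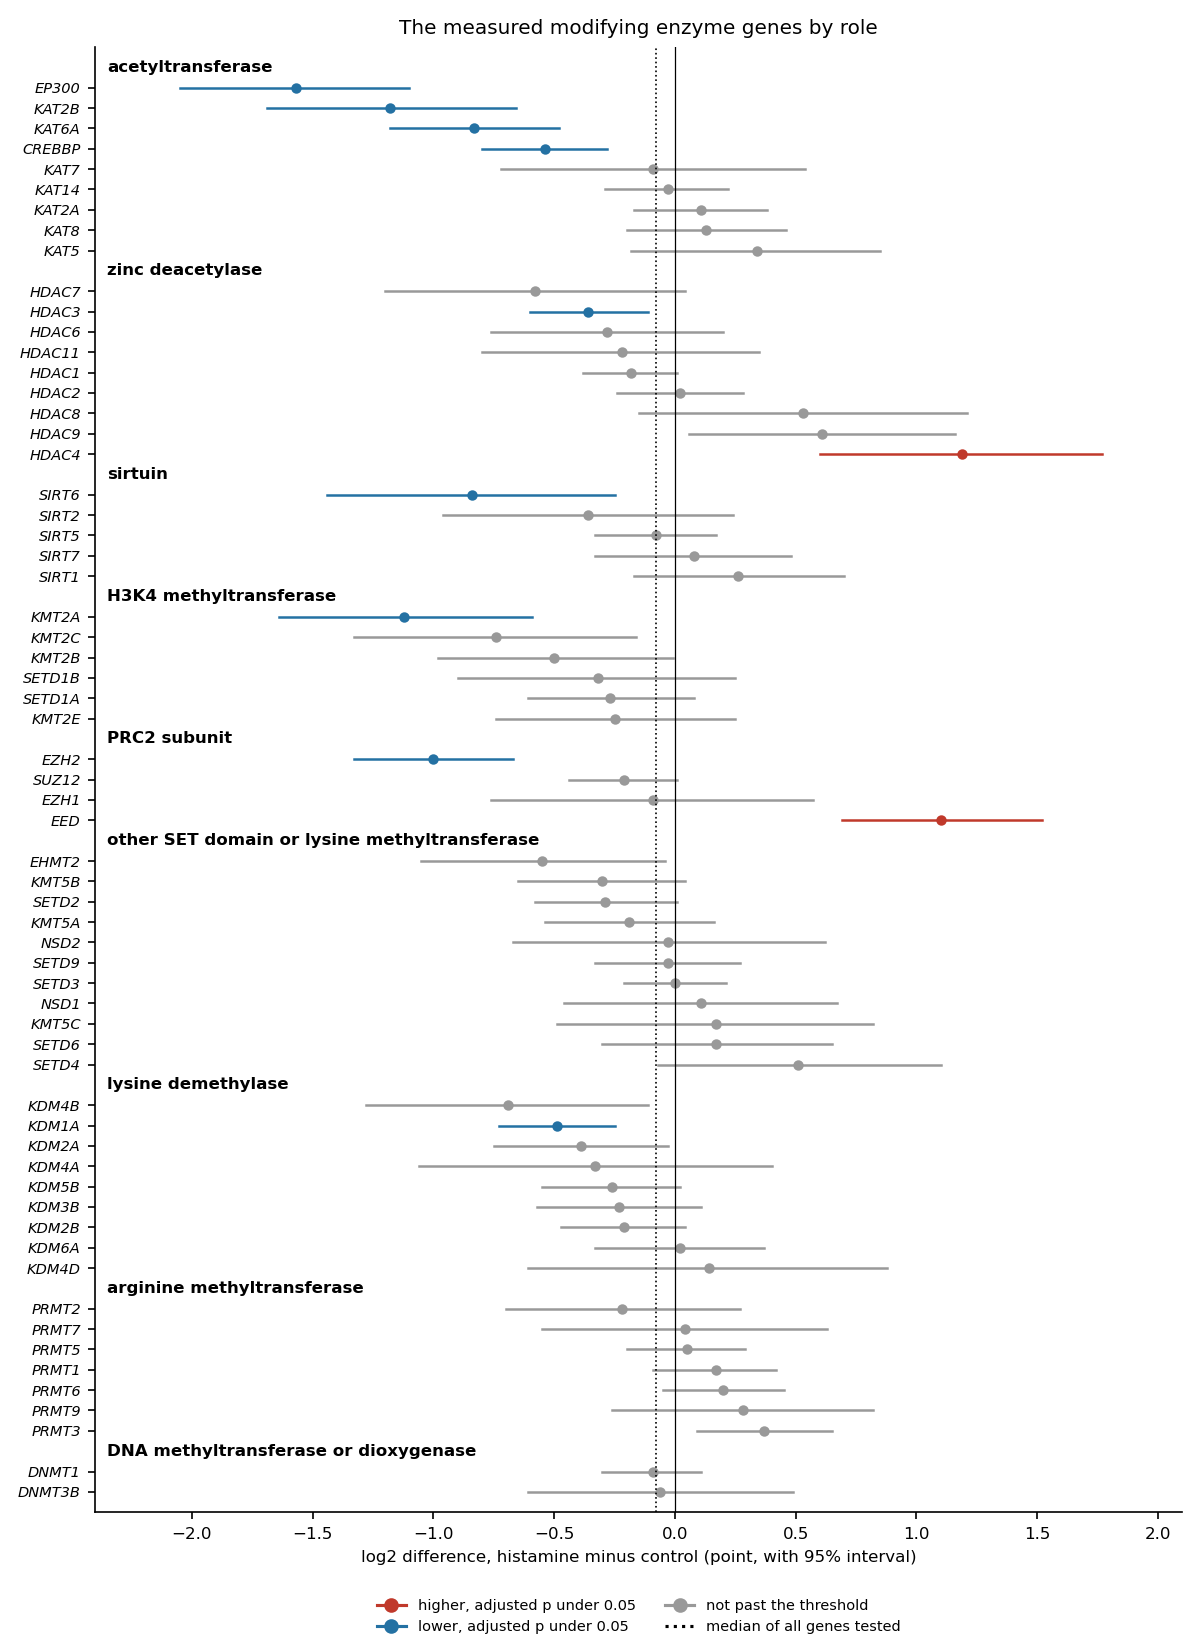
Log2 difference, histamine minus control, with its 95% interval for the 62 measured enzyme genes, ordered by role; blue genes fell, red genes rose and grey genes did not pass the threshold. The dotted line is the median of all genes tested, -0.08, and the differences run from -1.57 (EP300) to 1.19 (HDAC4).

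Probe choice mattered for part of these genes. Of the 62 genes, 12 were read by more than 1 kept probe, and 4 of the 12 had a probe past the threshold: EZH2, DNMT3B, HDAC9 and KMT2E. In none of the 12 did every probe pass. The second probes of DNMT3B, HDAC9 and KMT2E were the 3 that passed among 14 kept probes other than the brightest. Those of DNMT3B and KMT2E were detected on the control arrays alone, and that of HDAC9 on 3 histamine arrays and 1 control array. Another 31 probes of measured genes failed the detection filter. Of these, 5 were detected on 2 control arrays and on no histamine array: 2 read KDM2B and 1 each KMT2C, KMT2E and NSD1. Which exons or transcript variants the probes read was not analysed here.

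**Figure D4:**
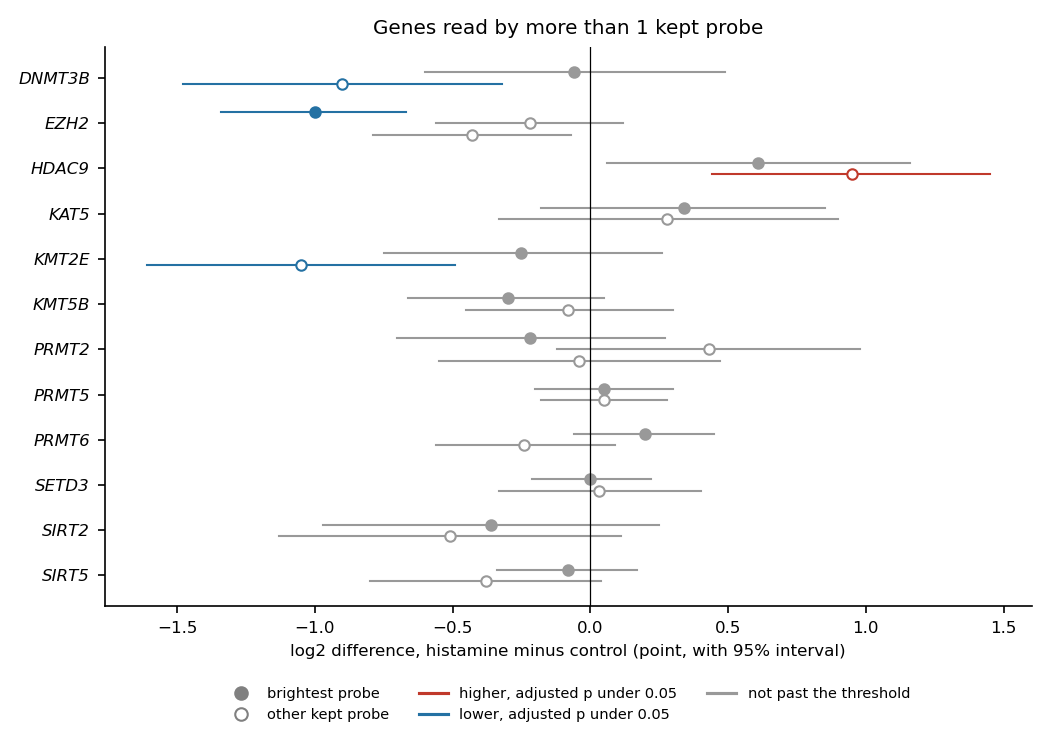
Log2 difference, histamine minus control, with its 95% interval for every kept probe of the 12 genes with more than 1; filled points are the brightest probe and open points the others, coloured by call. The probes of EZH2 share a sign and differ in size, from -1.0 to -0.22, and for DNMT3B, HDAC9 and KMT2E the open point alone passes.

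Other chromatin genes, in lists of partners outside the named families, also moved in both directions, in small counts that mostly depended on single arrays. The calls of RYBP, SMARCC2, EP400 and CBX1 held under every alternative that measured them. Among all genes 9.29% rose and 12% fell, and nothing particular to a list is read from its counts. Genes beyond the top 2 of a list were named after their values were seen. PRC1 had 0 risen and 2 fallen of 14, RYBP at -0.95 and PCGF2 at -0.62, with 1 to 3 fallen when single arrays were left out. Deacetylase complex partners had 1 risen (SAP30, 0.63) and 3 fallen of 17, namely GATAD2B (-0.61), TBL1XR1 (-0.52) and RCOR3 (-0.49). Of these decreases 0 passed without histamine replicate 3 or without control replicate 2, and no more than 1 of the 17 fell without histamine replicate 1. Partners of acetyltransferase complexes had 2 risen and 4 fallen of 24, with MSL2 at 1.08 and TAF5L at -1.0 as the largest, and TADA2A (0.75), MSL3 (-0.81), BRPF3 (-0.65) and JADE2 (-0.60) the others. With single arrays left out, 1 to 2 of them rose and 3 to 5 fell.

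The writers and erasers outside the named families had 1 risen (RIOX2, 0.57) and 2 fallen of 14, PHF2 (-0.58) and CARM1 (-0.42), an arginine methyltransferase. Of these 14 genes 0 fell without histamine replicate 3, 1 fell without histamine replicate 2 or control replicate 1 or 2, and 4 fell without control replicate 3. Chromatin remodellers had 1 risen (CHD1, 0.52) and 3 fallen of 18, SMARCC2, EP400 and CHD8 (-0.58). SMARCC2, a BAF complex subunit, had 7.46, 7.94 and 7.54 on the histamine arrays, against 8.69, 8.87 and 8.87 on the control arrays (-1.16 ± 0.17; adjusted p = 0.000111), so the groups did not overlap, and EP400, a remodeller that works with KAT5, was at -0.69. The rise of CHD1 was lost without histamine replicate 2 or 3 or control replicate 1 or 2, when dim probes were kept, under median scaling and with the trend removed. Without control replicate 3 the remodeller counts were 3 risen and 4 fallen. Of the bromodomain and HP1 readers 1 of 7 changed, the heterochromatin protein gene CBX1, which rose by 0.95 ± 0.15 (adjusted p = 0.000211), while BRD3 gave -0.39 and did not pass.

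DNA methylation partners had 1 risen (HELLS, 0.45) and none fallen of 9, and MBD1 (-0.57) and UHRF2 (0.51), the largest differences there, did not pass. The rise of HELLS was lost when any single array other than histamine replicate 2 or control replicate 3 was left out, when dim probes were kept, with the trend removed and with the replicate number as a block. On the mean of the kept probes, and likewise under median scaling, 0 of the 9 rose and 2 fell. Among the top 2 of each list, leaving out some single array ended the calls of SAP30, GATAD2B, RIOX2, PHF2, TAF5L, MSL2, PCGF2 and, as given above, RBBP7.

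Fold sizes depended on the background treatment. The EP300 log2 difference was -1.57 as reported, -1.10 with an offset of 50, -0.71 without background correction and -0.50 in the processed value table, and the HDAC4 log2 difference was 1.19, 0.71, 0.48 and 0.32. Calls of both held in each. For 8 of the 11 genes, namely EP300, KAT2B, KAT6A, CREBBP, HDAC4, KMT2A, EZH2 and EED, the call held under every alternative that measured them. The alternative that tests probes singly was counted here on the brightest probe, and the other kept probes of EZH2 did not pass. KDM1A lost its call once, and HDAC3 and SIRT6 lost theirs in 8 alternatives each. Median scaling moved the median of all genes to -0.26 and the split of all calls to 20.1% higher, from quantile normalization's 43.6%, yet the enzyme counts there were 2 risen and 11 fallen.

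**Figure D5:**
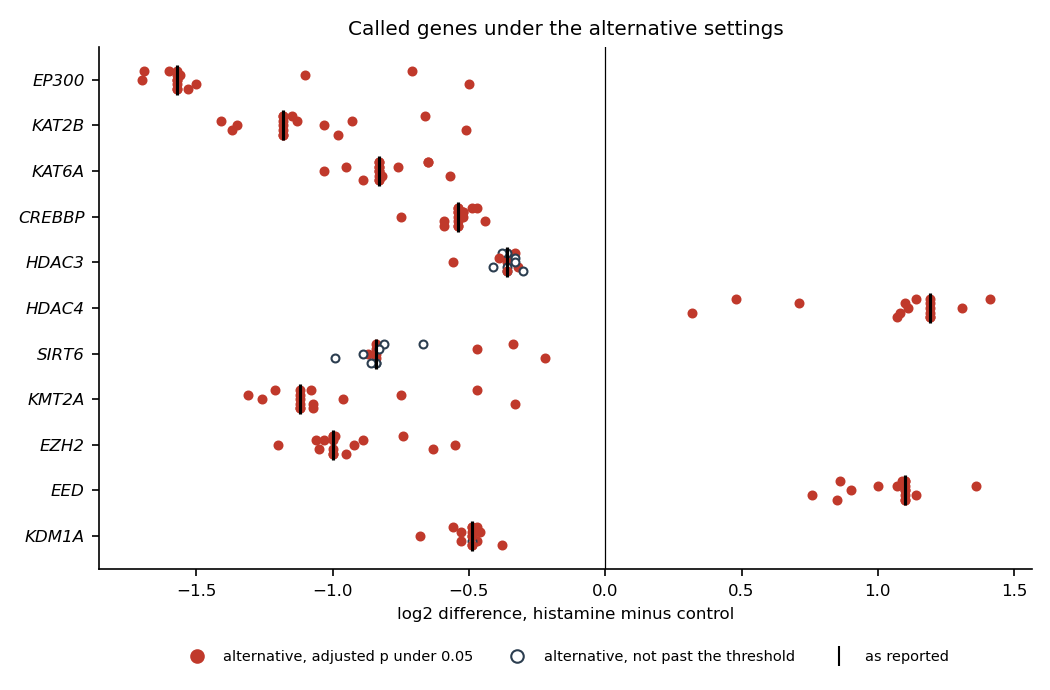
Log2 difference, histamine minus control, of the 11 called genes as reported (black bar) and under each alternative (points); filled points passed the threshold and open points did not. All points of a gene lie on one side of 0, and open points occur for HDAC3, SIRT6 and KDM1A, that of KDM1A behind its bar.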

How the data were processed

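Total RNA of 6 HaCaT samples was labelled with biotin and hybridized to Illumina HT-12 arrays, 1 per sample. The deposited intensity of a probe is its average bead signal, per the file headers, with array medians that differ; the deposited detection p-values rank each signal among negative control beads. The authors' processed table is on a log2-like, quantile-normalized scale of unstated transform. GenomeStudio 2010.1 and lumi are named per the submitters' processing notes.

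Signals were corrected here with normexp from the detection p-values (offset 16, limma 3.58.1, statmod 1.5.0, R 4.3.3), then quantile normalized and log2 transformed. Kept probes (17871) were detected (p-value below 0.05) on 3 or more of the 6 arrays, and each gene was read by its brightest kept probe with 1 symbol. All 137 enzyme probes matched the RefSeq gene table by Entrez identifier with the same symbol. Probe coordinates were not used here.

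A limma model of group with an intensity trend was fitted across 10406 genes, with 2-sided p-values adjusted by Benjamini and Hochberg and a threshold of 0.05. Intervals are 95% and come from that model. The number of arrays limits the precision. The procedure was tested on simulated data. Genes named are those past the threshold, the 2 largest differences of each role, members past it on another probe, other probes of these genes and up to 2 genes for each partner list; further partners were named after their values were seen. Members and lists were chosen with earlier results of these data known. Alternatives covered background, scaling, filter, probe rule, variance model, replicate block and single arrays left out; single arrays were left out after normalization. Promoter sequences are from RefSeq, GRCh38.p14; the windows' orientation was checked by the position of TATA boxes.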

Additional observations from a re-analysis of the deposited data

Results flagged for a closer look

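DOT1L, which methylates the core of histone H3, did not pass the detection filter and enters no comparison above, but its probe was detected on 2 of 3 histamine arrays and on 0 of 3 control arrays. Its log2 intensity was 5.87, 5.25 and 5.59 on the histamine arrays, against 5.30, 5.13 and 5.38 on the control arrays, so the groups overlap. It was flagged as a signal outside the comparison that was above background with histamine alone, and the difference was not tested.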

How the results depend on the processing

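The number of genes called among all genes was 2220 as reported, 1476 when dim probes were kept and 1372 with the intensity trend removed, and it ranged from 1220 to 2547 when single arrays were left out. Enzyme genes lower with histamine numbered between 6 and 11 over all alternatives. Enzyme genes higher numbered 2 or 3, except 1 with the stricter filter, which did not measure HDAC4, EP300, KMT2A or SIRT6. Left-out single arrays gave 2 to 3 enzyme genes higher and 7 to 10 lower. The following were run after the data were seen: COMPASS partners lower numbered 5 as reported, 2 without the intensity trend and 3 to 5 with single arrays left out, and PRC2 partners higher numbered 2 as reported, 1 under median scaling, 1 without the intensity trend and 1 to 2 with single arrays left out. The cause of these shifts was not tested, apart from the fewer genes the stricter filter tests. With the replicate number of the sample titles as a replicate block, 1905 genes changed, 3 enzyme genes rose (EED, HDAC4 and PRMT3) and 7 fell, with HDAC3 and SIRT6 lost. Same-numbered arrays showed no shared deviation (correlations over genes of -0.03, -0.03 and -0.05), and no array correlated best with the array of its own number. With 3 arrays in each group this cannot show whether same-numbered samples were made together. Of the 51 enzyme genes that did not pass, 7 passed under at least 1 alternative that gives 1 value per gene (KDM2A, KMT2C, HDAC9, KMT2E, EHMT2, KDM4B and PRMT3), and DNMT3B passed when probes were tested singly. No called gene turned its sign under any alternative run. Dim probes, such as those of SIRT6, KMT2A and EP300, lie near background, which limits their folds.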
